A study of Mus musculus with 6 samples.

Results

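The genes described here encode the myosin chains of heart muscle and the kinases that phosphorylate their light chains: *Myh6*, *Myh7*, *Myh7b*, *Myl2*, *Myl3*, *Myl4*, *Myl7*, *Mylk2*, *Mylk3* and *Mylk4*. These 10 genes were taken by name from the 27307 named genes of the array, and all 19 of their probes were followed among the 56605 probes that are not controls. Gene expression was measured in the myocardium of *Clk4*-cKO mice on 6 Agilent arrays with 1 dye, which read the labelled RNA of 3 mice given AAV NEXN-WT and of 3 mice given AAV NEXN-S437E. The comparison asked what sustained NEXN phosphorylation changed in these hearts. NEXN is an actin-binding protein of the Z-disc, and the S437E form carries glutamate at the serine that CLK4 phosphorylates, which mimics the phosphorylated state. By the labels and the study's methods, all mice were C57BL/6J males in which tamoxifen had activated Cre recombinase to delete *Clk4* in cardiomyocytes of both groups (floxed alleles with *α-MHC-MerCreMer*, a transgene driven by the promoter of *Myh6* itself), and both received a serotype 9 vector with a CMV promoter. Hearts labelled as having intact *Clk4* were not analysed here.

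Cardiac muscle contracts when myosin heavy chains, each carrying an essential and a regulatory light chain, pull on actin. The adult mouse ventricle runs mainly on the fast α heavy chain (*Myh6*), while the slow β heavy chain (*Myh7*) belongs to the fetal ventricle and returns in many forms of hypertrophy. Atria and ventricles use different light chains, and phosphorylation of the regulatory light chain by a myosin light chain kinase tunes the force of contraction.

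Values are log2 signals relative to the 75th percentile of the same array, so a value of 0 is a probe as bright as that percentile. A probe entered the test if, in 1 group or both, each of the 3 arrays read it well above background, and 22998 probes of 13747 genes did. Of the 19 probes of the myosin genes, 13 were tested, from 9 of the 10 genes, and 12 were well above background on all 6 arrays. No spot was saturated, and the share of spots well above background ran from 41.9% to 47.8%. The number of arrays, 3 a group, limits the precision of every value.

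Some features of the libraries bear on all that follows. NEXN-WT replicate 1 stood apart from its group, with a mean absolute log2 difference of 0.412 to the other 2 arrays, against 0.236 to 0.344 for the other 5 arrays. All 6 arrays were on 1 slide, where row 1 held all 3 NEXN-WT hearts with replicate 1 of NEXN-S437E, and row 2 held the other 2. Values within row 1, or with the row as a block, therefore set the 3 NEXN-WT hearts against that 1 NEXN-S437E heart. The *Clk4* probe A_52_P445387 read 1.30 ± 0.18 with NEXN-WT and 1.43 ± 0.23 with NEXN-S437E (SD, n = 3 each), and its place relative to the deleted exons was not determined, so it does not check the deletion. The *Nexn* probe A_55_P2745249 read 2.58 ± 0.18 and 2.72 ± 0.34 in the same order, with overlap between the groups, and whether it reads the vector, the endogenous gene or both was not determined. The *Esr1* probe A_55_P2030883, whose gene supplies the hormone-binding part of MerCreMer, read 3.13, 5.82 and 5.21 with NEXN-WT but stayed at background in all 3 NEXN-S437E hearts, at least 255-fold lower (limma adjusted p = 0.00114). Of the other tested *Esr1* probes, A_52_P237077 was at least 1.55-fold lower and at background in all NEXN-S437E hearts, and A_65_P17231 differed by -0.58, both with overlap. All these *Esr1* probes were tested only through the NEXN-WT group, so their differences are given as a description. Whether any of them reads the transgene, and whether the hearts labelled NEXN-S437E carried it and with it the *Clk4* deletion, was not tested. The hearts labelled NEXN-S437E therefore differed from the NEXN-WT hearts in this signal as well as in the NEXN form named by the labels. Its part in the results on the myosin genes was not tested, and the 2 differences cannot be told apart here.

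The sequences behind the measurements are given before the values. The arrays read each gene through probes of 60 bases, of which the first 30 are shown for the probes of the α and β heavy chains and of *Mylk4*, because the main differences rest on them. The heavy chain probes lie on the minus strand of chromosome 14 in the mm9 build, at chr14:55560774-55560833 for *Myh6* and chr14:55589581-55589640 for *Myh7*, and the *Mylk4* probes lie on chromosome 13 at chr13:32792837-32792896 and within chr13:32797084-32800807.
Myh6 probe A_55_P2173952: gcacgacgaggaataacctctccagcagac
Myh7 probe A_55_P2093232: atgaggagtagctcttgtgctacccagctc
Mylk4 probe A_52_P1011632: gtggattgtgtagtgactgtcatgtatatt
Mylk4 probe A_55_P2026728: caactctggtgttctgaacctcacgaccaa

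Start site windows from RefSeq (GRCm38.p6), 250 bases before to 50 bases after an annotated start and written on the coding strand, were found for 9 of the 10 genes. They are shown for *Myh6*, *Myh7* and *Mylk4*, the adjacent heavy chain genes and the kinase gene with the largest difference. Capitals mark matches on either strand to the muscle element known as MCAT, spelled CATTCC, or to the core of a thyroid hormone response element, spelled AGGTCA. They also mark the letters TATAAA, which the basal transcription machinery binds, and the motifs known by name as CArG and MEF2. The letters AGATAA, which GATA factors bind, were searched as well. *Myh6* and *Myh7* lie next to each other on the minus strand, in chr14:54966558-54966857 and chr14:54994577-54994876, and the *Mylk4* window is on the minus strand in chr13:32783915-32784214. The RefSeq genes on this strand begin at chr14:54968017 for *Myh6* and chr13:32806773 for *Mylk4*. The windows shown for *Myh6* and *Mylk4* are therefore at annotated starts within the gene.
Myh6 window: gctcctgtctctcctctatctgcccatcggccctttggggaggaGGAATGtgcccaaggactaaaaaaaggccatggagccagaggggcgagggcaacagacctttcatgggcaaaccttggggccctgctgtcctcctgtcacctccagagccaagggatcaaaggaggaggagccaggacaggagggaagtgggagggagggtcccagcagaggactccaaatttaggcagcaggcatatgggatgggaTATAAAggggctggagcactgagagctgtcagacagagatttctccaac
Myh7 window: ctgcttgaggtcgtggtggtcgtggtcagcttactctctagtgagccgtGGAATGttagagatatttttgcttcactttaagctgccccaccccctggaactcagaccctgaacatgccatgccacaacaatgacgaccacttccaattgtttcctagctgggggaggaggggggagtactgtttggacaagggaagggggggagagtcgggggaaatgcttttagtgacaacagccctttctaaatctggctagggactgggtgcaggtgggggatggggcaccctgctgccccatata
Mylk4 window: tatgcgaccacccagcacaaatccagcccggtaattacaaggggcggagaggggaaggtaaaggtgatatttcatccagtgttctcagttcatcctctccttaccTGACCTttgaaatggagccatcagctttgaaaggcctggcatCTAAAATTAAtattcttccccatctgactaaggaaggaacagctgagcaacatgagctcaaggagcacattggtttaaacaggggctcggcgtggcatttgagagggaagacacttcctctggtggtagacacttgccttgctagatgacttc
*Myh7* has a second annotated start, whose window (chr14:54994500-54994799) overlaps the first and holds no match to these motifs. Both windows shown for the heavy chains hold an MCAT match on the opposite strand, with its first base at position -206 in *Myh6* and -201 in *Myh7*, and 14.7% of the 32841 windows of all genes hold at least 1. The letters TATAAA marked in *Myh6* begin at position 2, past the annotated start. The *Mylk4* window holds a thyroid hormone element match at position -145 and a MEF2 match at -103, motifs found in 16.3% and 1.86% of all windows. These matches describe the letters only.

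The heavy chain genes also carry microRNAs in their transcription units. By RefSeq coordinates, miR-208a lies within *Myh6*, miR-208b within *Myh7* and miR-499 within *Myh7b*. Their mature forms are shown because the 3 heavy chain genes carry them, with the seed (bases 2 to 8) in capitals. Their levels were not analysed here.
mmu-miR-208a-3p: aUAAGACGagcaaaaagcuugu
mmu-miR-208b-3p: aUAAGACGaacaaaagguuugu
mmu-miR-499-5p: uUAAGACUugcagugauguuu
The seeds of miR-208a-3p and miR-208b-3p are identical, and that of miR-499-5p shares all but its last base with them.

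The β heavy chain gene was the myosin gene with the largest fall. *Myh7* (probe A_55_P2093232) read 7.73, 6.10 and 6.89 in the NEXN-WT hearts and 4.79, 4.21 and 4.74 in the NEXN-S437E hearts. Every NEXN-S437E value lay below every NEXN-WT value, and the highest value was that of NEXN-WT replicate 1. The difference was -2.33 on the log2 scale (SE 0.38, 95% confidence interval -3.21 to -1.44), a 5.02-fold lower signal. It passed the study's thresholds, a 2-fold change with an unadjusted p under 0.05, and missed an adjusted p of 0.05 over all tested probes (limma adjusted p = 0.0815). Without NEXN-WT replicate 1 the difference was -1.91, and within slide row 1 it was -2.12. The other *Myh7* probe, A_65_P07389, cleared the background on 2 arrays of NEXN-WT and none of NEXN-S437E, read -3.42 ± 1.14 and -3.56 ± 0.34 (SD, n = 3 each) with overlap, and was not tested.

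*Myh6*, the α heavy chain gene, differed the other way but by less. Its probe A_55_P2173952 read 8.15, 8.61 and 8.31 with NEXN-WT and 8.86, 9.02 and 8.92 with NEXN-S437E, a difference of 0.58 (SE 0.16, limma adjusted p = 0.176). Its second probe, A_55_P2140453, read 3.52, 4.52 and 4.25 with NEXN-WT and 5.004, 4.72 and 4.69 with NEXN-S437E, a difference of 0.71 (SE 0.26, limma adjusted p = 0.238). Both probes were higher without overlap between the groups, and neither reached a 2-fold change. In the study's own normalized values the difference of the first probe shrank to 0.20 with overlap, and that of the second was 0.56 without overlap. Within slide row 1 the differences were 0.50 and 0.91, and without NEXN-WT replicate 1 that of the second was 0.42.

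*Myh7b*, a slow heavy chain gene on chromosome 2, read 4.11, 4.33 and 4.11 with NEXN-WT and 4.56, 4.63 and 4.61 with NEXN-S437E (probe A_66_P138345). The groups did not overlap, and the difference of 0.42 (SE 0.14, limma adjusted p = 0.216) was below 2-fold. It was 0.27 after quantile normalization and in the study's own values, and 0.26 under normexp. Its other probe, A_55_P2742560, stayed at background throughout. Thus, of the 3 heavy chain genes, *Myh7* alone passed the study's thresholds, and it alone was lower.

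Because both heavy chains are read on the same array, their ratio is free of any constant by which an array is scaled. The log2 ratio of *Myh7* to *Myh6* (the first probe of each) was -0.42, -2.51 and -1.42 with NEXN-WT, against -4.06, -4.81 and -4.18 with NEXN-S437E. Only its change is read here, as the probes need not bind equally. The log2 ratio differed by -2.90 between the groups, with no overlap, and by -3.03 with the second *Myh6* probe. An exact two-sided permutation test gave p = 0.1 for each, which is the smallest that 3 against 3 arrays can give. Leaving out 1 array at a time moved the first difference between -3.43 and -2.39, the latter without NEXN-WT replicate 1. The plot of ratios within arrays sets these beside the light chain ratios.

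**Figure D1:**
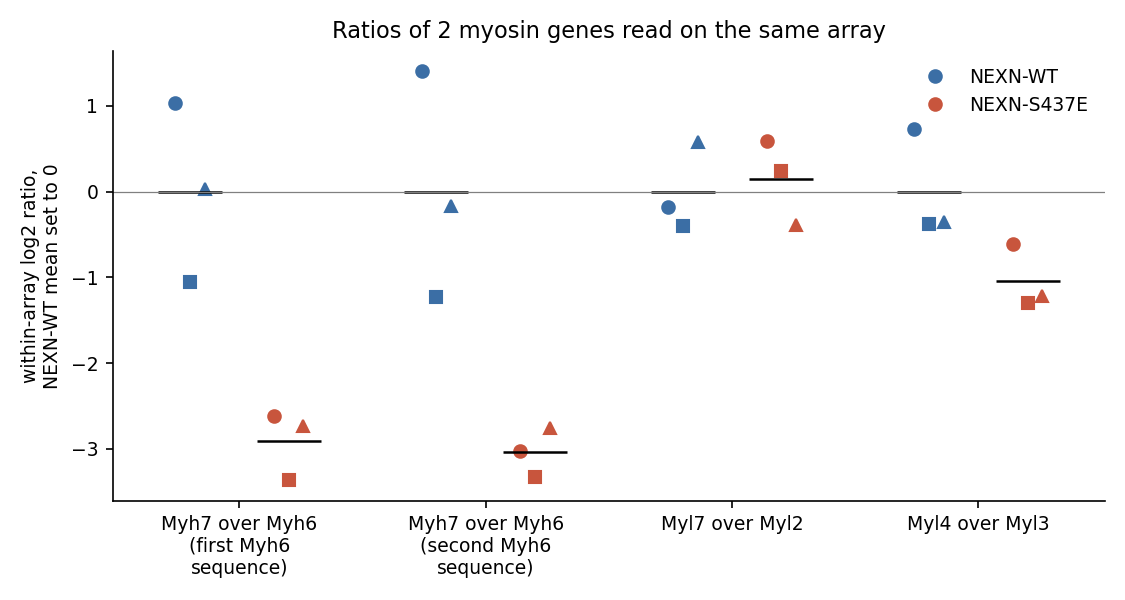
Within-array log2 ratios of 2 genes, each point 1 array (circle, square and triangle for replicates 1, 2 and 3) and each bar a group mean, drawn with the NEXN-WT mean at 0. The *Myh7* to *Myh6* ratio lay lower on all 3 NEXN-S437E arrays with either *Myh6* probe, the *Myl4* to *Myl3* ratio differed by -1.04 without overlap, and the *Myl7* to *Myl2* ratio overlapped.

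The array also reads transcripts around the heavy chain genes, which were looked at for their position. *Mhrt*, a long noncoding RNA transcribed antisense to *Myh7*, is read by a plus strand probe (A_51_P338183) between the *Myh7* probes. It read -0.87, -0.16 and -0.34 with NEXN-WT and -0.09, 0.68 and 0.67 with NEXN-S437E. This difference of 0.88 (SE 0.27, limma adjusted p = 0.195) came without overlap and was opposite in direction to *Myh7*. The NEXN-S437E array of slide row 1, replicate 1, read -0.09, close to NEXN-WT replicate 2 at -0.16. *Gm31251*, on the *Myh7* side (probe A_51_P100428), was higher by 1.25 (SE 0.28, limma adjusted p = 0.129) and past the study's thresholds, though not under normexp, where it was 0.81, or with array weights. On the *Myh6* side, the *Cmtm5* probes A_51_P438924 and A_55_P1955437 were tested only through the NEXN-S437E group, being above background on 2 of the 3 NEXN-WT arrays, and their measured differences of 0.86 and 1.19 are given as a description. Among the probes of this interval above background on all 6 arrays, that of *Myh7* was the only one with a negative difference.

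Neither ventricular light chain gene passed the study's thresholds. *Myl2*, the ventricular regulatory light chain, read 8.80, 8.50 and 8.37 with NEXN-WT and 8.85, 8.93 and 8.80 with NEXN-S437E (probe A_66_P104309), a difference of 0.30 (95% confidence interval -0.07 to 0.68, limma adjusted p = 0.358) with overlap. This direction turned with the scaling: the difference was -0.06 after quantile normalization and -0.09 in the study's own values. *Myl3*, the ventricular essential light chain (probe A_51_P177210), read 8.66, 9.14 and 9.19 with NEXN-WT and 9.28, 9.43 and 9.53 with NEXN-S437E. Its difference of 0.42 (95% confidence interval -0.01 to 0.84, limma adjusted p = 0.295) came without overlap, and it was 0.03 in the study's own values, with overlap. Without NEXN-WT replicate 1 the *Myl3* difference was 0.25.

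The atrial essential light chain gene, *Myl4*, was lower with NEXN-S437E on both tested probes. Probe A_55_P2107045 read 2.23, 1.61 and 1.68 with NEXN-WT and 1.51, 0.98 and 1.15 with NEXN-S437E, and its difference was -0.62 (SE 0.22, limma adjusted p = 0.227). Probe A_51_P413130 read -0.01, -0.45 and -0.48 with NEXN-WT and -0.68, -1.03 and -0.86 with NEXN-S437E, and its difference was -0.54 (SE 0.18, limma adjusted p = 0.217). Neither showed overlap, neither reached 2-fold, and NEXN-WT replicate 1 was the highest on both. Within slide row 1 the differences were smaller, -0.32 and -0.37, and under normexp that of A_51_P413130 was -0.27. A further *Myl4* probe, A_55_P2822182, stayed at background throughout. Read against *Myl3* on the same array, *Myl4* (A_55_P2107045) differed by -1.04 on the log2 scale with no overlap (exact two-sided permutation p = 0.1, the smallest possible). Without NEXN-WT replicate 1 this was -0.68.

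*Myl7*, the atrial regulatory light chain, was the gene with no tested value. Its probe A_51_P246345 cleared the background for replicates 1 and 3 of NEXN-WT and for replicates 1 and 2 of NEXN-S437E. It read -3.58, -4.11 and -3.26 with NEXN-WT and -2.76, -3.04 and -3.80 with NEXN-S437E, near the limit of detection and with overlap. The ratio of *Myl7* to *Myl2* within arrays differed by 0.15 on the log2 scale (exact two-sided permutation p = 0.7), and a value so near background sets only a loose limit on it.

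Among the kinases, *Mylk4* was the gene past the study's thresholds. Its probe A_52_P1011632 read 1.34, 2.68 and 3.01 with NEXN-WT and 3.94, 3.94 and 3.93 with NEXN-S437E, a difference of 1.60 (SE 0.38, 95% confidence interval 0.71 to 2.48). This 3.03-fold higher signal passed the study's thresholds and missed the adjusted one (limma adjusted p = 0.135). The NEXN-S437E hearts lay within 0.01 (SD) of each other and above every NEXN-WT heart, among which replicate 1 was the lowest.

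The second *Mylk4* probe, A_55_P2026728, adds little to this, since it was tested only through the group in which it was bright. It read -4.71, -2.90 and -3.24 with NEXN-WT and -1.31, -1.41 and -0.96 with NEXN-S437E, and it cleared the background in all 3 NEXN-S437E hearts but in NEXN-WT only in replicate 2. Its measured difference of 2.39 (SE 0.42, limma adjusted p = 0.0853) rests on NEXN-WT signals that were mostly at background, and it is given as a description. It passed the study's thresholds except under normexp background correction, where it was 0.90. Without NEXN-WT replicate 1 the 2 probes differed by 1.1 and 1.84, and within slide row 1 by 1.60 and 2.31.

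*Mylk3* encodes the cardiac myosin light chain kinase that acts on the ventricular regulatory light chain. Probe A_55_P1990870 read 3.85, 4.16 and 4.23 with NEXN-WT and 4.64, 4.64 and 4.68 with NEXN-S437E, higher by 0.57 (SE 0.15, limma adjusted p = 0.159). Probe A_66_P113243 read 2.79, 3.25 and 3.30 with NEXN-WT and 3.89, 3.81 and 3.71 with NEXN-S437E, higher by 0.69 (SE 0.18, limma adjusted p = 0.151). Neither overlapped between the groups and neither reached 2-fold, whereas the third probe, A_55_P1990061, cleared the background on 4 arrays and was not tested.

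*Mylk2*, the kinase of skeletal muscle, read -2.05, -2.69 and -2.82 with NEXN-WT and -2.44, -2.98 and -2.40 with NEXN-S437E (probe A_55_P2047043). The groups overlapped and the difference was -0.09 (95% confidence interval -0.66 to 0.49, limma adjusted p = 0.871). Its other probe, A_55_P2854551, stayed at background throughout.

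**Figure D2:**
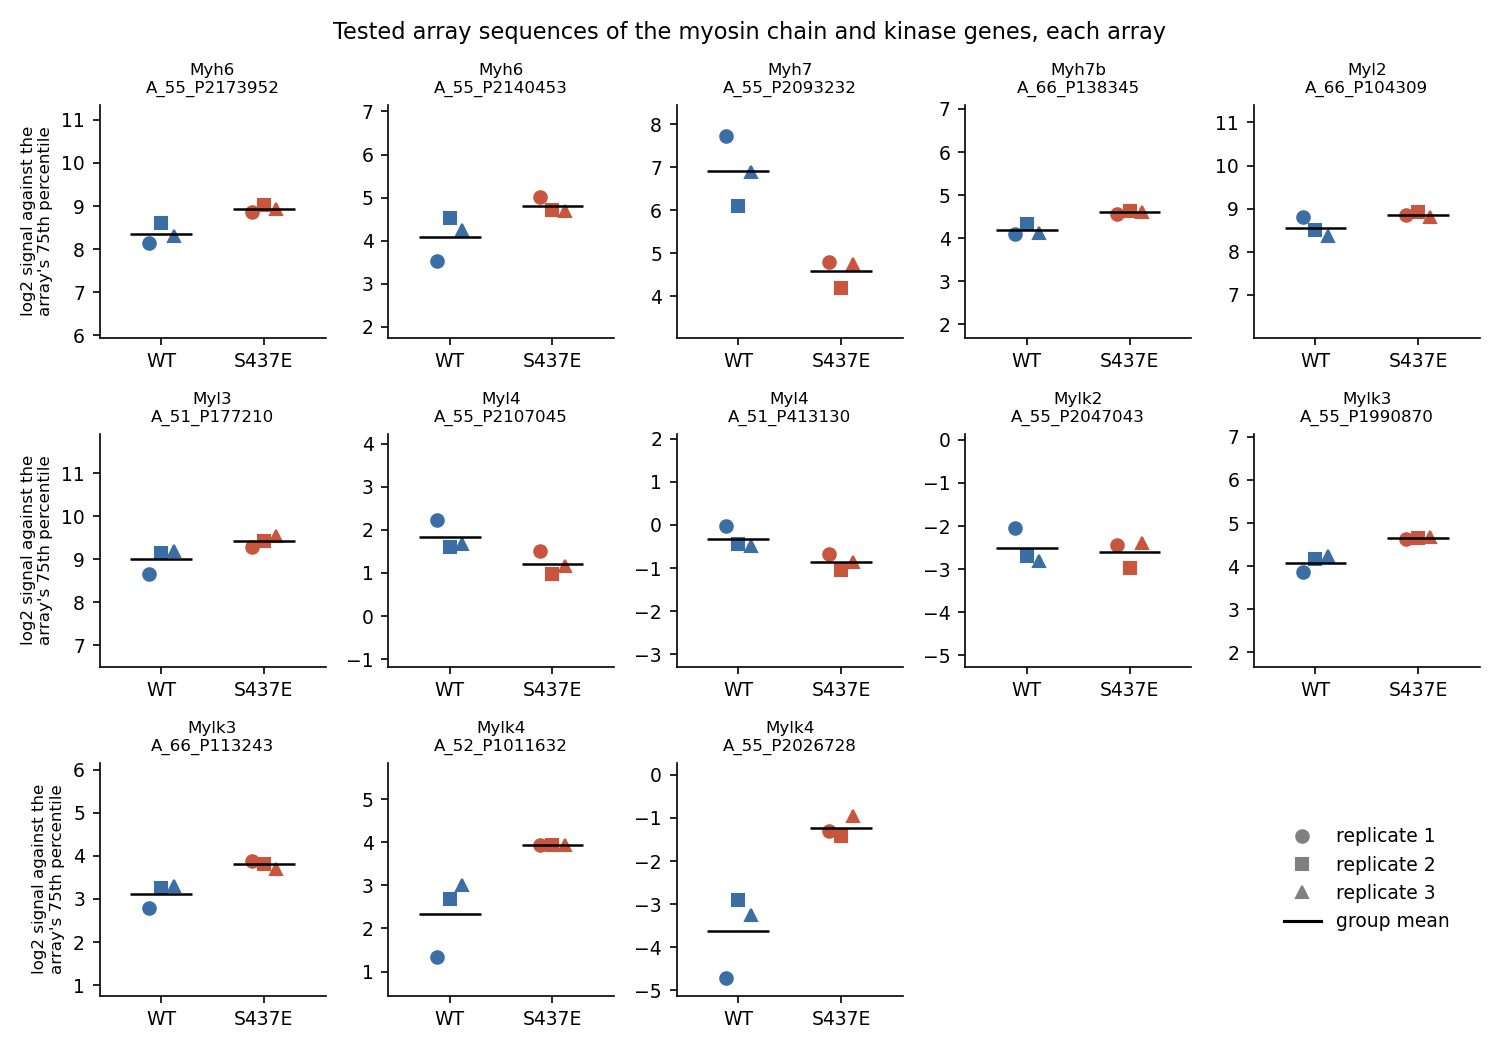
Signal of each tested probe on each array, on the log2 scale relative to the 75th percentile of the array, with 1 panel a probe, a range of the same height in every panel, and the group mean as a bar. *Myh7* fell from a mean of 6.91 to 4.58, and the *Mylk4* probe A_52_P1011632 rose from 2.34 to 3.94, while the NEXN-WT points of A_55_P2026728 lie mostly at background and the other panels show smaller steps.

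Counted over the 13 tested probes, 3 passed the study's thresholds, against 2.52% of all tested probes. They were 1 lower probe, of *Myh7*, where 1.78% of all tested probes were called lower, and 2 higher probes, both of *Mylk4*, where 0.735% were called higher. Probes of 1 gene share their target, so these are 2 genes and not 3 separate results. The *Mylk4* probe A_55_P2026728 entered through the NEXN-S437E group alone and counts in each tally of the 13. With probes above background on all 6 arrays the count was 2 of 12, against 345 of 21110 probes. None reached an adjusted p under 0.05 (limma; 0.161% of all tested probes did), and the smallest was that of *Myh7* at 0.0815. At an unadjusted p under 0.05 there were 10 of the 13, from 6 genes, against 17.2% of all probes. The groups did not overlap for 11 of the 13, from 7 genes, against 27.9% of all probes. The median difference of the 13 was 0.42, with 9 higher and 4 lower, and that of all tested probes was 0.09. Over the whole array 169 probes were called higher and 410 lower, a balance that turned to 1645 and 624 with no filter on dim probes. With the 75th percentile taken only over probes above background on all 6 arrays, these became 113 and 496 and the median of all tested probes moved to -0.02, while the calls for *Myh7* and *Mylk4* held.

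**Figure D3:**
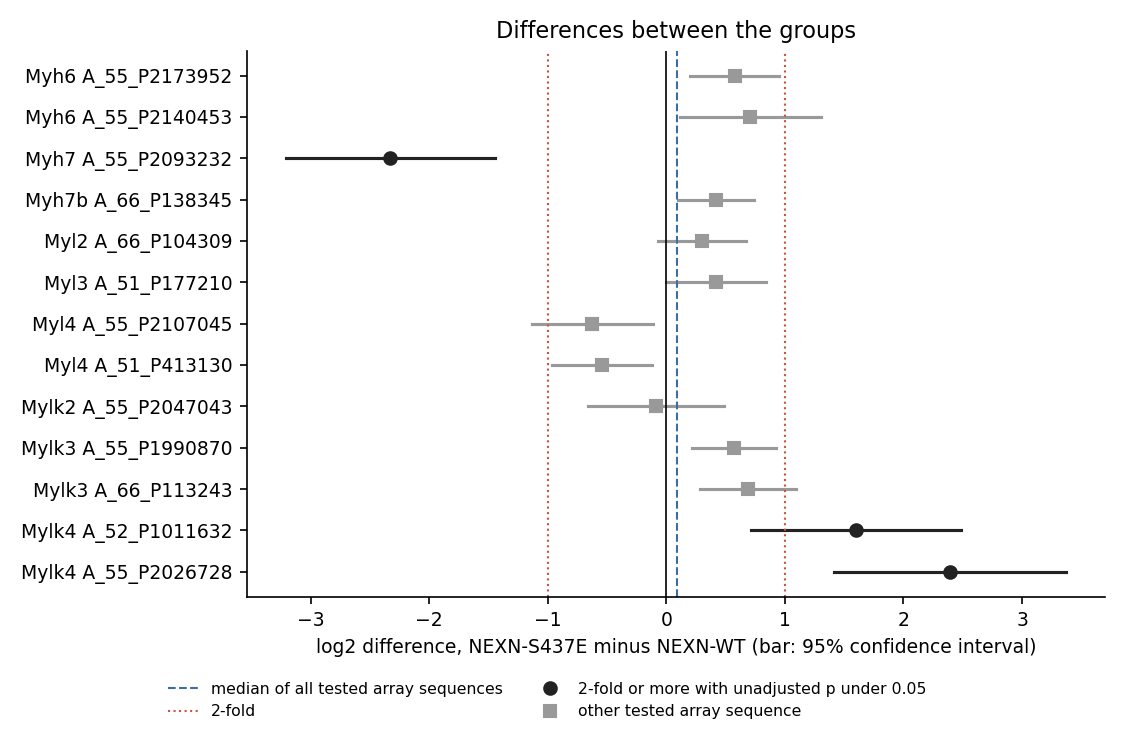
Difference of each tested probe between NEXN-S437E and NEXN-WT (log2, with its 95% confidence interval from limma), beside the median of all tested probes (dashed) and a 2-fold change (dotted). The *Myh7* interval lies below a 2-fold fall, that of the *Mylk4* probe A_55_P2026728 lies above a 2-fold rise, and 3 others, of *Myh6* (A_55_P2173952), *Myh7b* and *Mylk3* (A_55_P1990870), lie wholly between 0 and 1. The probe A_55_P2026728 was tested only through the NEXN-S437E group, where it was bright.

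Several of the differences among the chains and *Mylk3* were close to those of heart muscle genes at large. All 12 cardiomyocyte markers had positive differences, from 0.23 to 0.60 with a median of 0.43, against a median of 0.07 over all tested genes, and none passed the study's thresholds. *Tcap* and *Tnni3*, a Z-disc cap and a troponin, had the largest of them, 0.60 for each. Their summed linear signal, in multiples of the 75th percentile of the array, ran from 1595 to 2536 with NEXN-WT, lowest in replicate 1, and from 2854 to 2941 with NEXN-S437E. The differences of *Myh6*, *Myh7b*, *Myl2*, *Myl3* and *Mylk3*, from 0.30 to 0.71, covered much the same range. Of these, *Myh6* A_55_P2140453 (0.71) and *Mylk3* A_66_P113243 (0.69) lay above it. The differences of *Myh7*, *Myl4*, *Mylk4* and *Mylk2* (-0.09) fell outside it. In these tissue samples fewer cells of a type and less RNA per cell cannot be told apart, and the part of the cardiomyocyte signal in the myosin results was not tested. After quantile normalization 11 of the 12 markers stayed positive, with a median of 0.21, and without NEXN-WT replicate 1 the median was 0.28.

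All 9 tested ventricular markers had positive differences with a median of 0.32, none called, the largest being *Mpped2* at 0.71 and *Pln*, the regulator of the calcium pump, at 0.43. The ventricular median was 0.19 without NEXN-WT replicate 1 (8 of 9 positive) and 0.18 with the slide row block or in row 1 alone (7 of 9 positive). Atrial markers split, with 5 of 10 tested genes higher, 5 lower and 2 called lower. *Nppa*, the atrial natriuretic peptide, fell by 1.39 on the log2 scale (SE 0.17, limma adjusted p = 0.0254), and *Dkk3*, a secreted glycoprotein, fell by 3.34 (SE 0.50, limma adjusted p = 0.0631). The other tested *Dkk3* probe, A_55_P2083609, differed by -2.92. *Bmp10* and *Mybphl*, defining genes of the atrium, stayed at background on every array. The summed atrial signal, carried mostly by *Nppa*, was 408 to 463 with NEXN-WT and 165 to 217 with NEXN-S437E, and its part in the lower *Myl4* values was not tested.

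The list of hypertrophy markers holds genes that accompany *Myh7* in the overloaded heart. Of its 7 tested genes, 2 were called lower, none higher, and the median was -0.68, or -0.38 without NEXN-WT replicate 1. With the slide row block 1 was called, and with normexp 3 were. *Nppb*, the B-type natriuretic peptide, was the only one with a positive difference, 0.04 (SE 0.17, limma adjusted p = 0.924), with overlap. Its sign was not stable, as no gene of the list was positive after quantile normalization, under normexp, in the study's own values or without NEXN-WT replicate 1. The called genes were *Nppa* and *Acta1*, the skeletal α-actin of the fetal heart, which fell by 1.28 (SE 0.32, limma adjusted p = 0.146). *Acta1* was not called with the slide row as a block (-1.05) or without NEXN-WT replicate 2 (-0.98). The second *Nppa* probe, A_55_P2745418, fell by 2.07 (SE 0.24, limma adjusted p = 0.0221), and its profile over the 6 arrays was, after that of *Stam2*, the nearest to *Myh7*.

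That likeness was measured as the root mean square difference of profiles centred on their own means, over 18894 probes of other genes that were well above background on all 6 arrays. For *Myh7* it was 0.27 log2 units to *Stam2*, 0.29 to *Nppa* and 0.29 to *Pamr1*. For the first *Mylk4* probe, A_52_P1011632, the nearest were *Acsm5* at 0.12, *Penk* at 0.13 and *Plk5* at 0.15. For the second, A_55_P2026728, they were *Poln* at 0.24, *Penk* at 0.38 and *Ubxn10* at 0.42, from a profile at background on 2 of the 3 NEXN-WT arrays. These are descriptions over 6 arrays.

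The partners of myosin in the thick filament and the M-band had mostly small positive differences. Of 11 tested genes 9 had positive differences, none passed the study's thresholds, and the median was 0.39, with *Trim54* (0.50), a ubiquitin ligase of the sarcomere, and *Ttn* (0.43), the giant ruler of the sarcomere, the largest. Other *Ttn* probes gave -0.03 to 0.25. The median of the list was 0.14 without NEXN-WT replicate 1, 0.09 after quantile normalization and 0.08 in the study's own values. The summed signal of this list was 858 to 1081 with NEXN-WT and 1188 to 1295 with NEXN-S437E. Among 8 genes of myosin folding none was called and the median was 0.27, the largest being *Smyd1* (0.55), a methyltransferase needed to build the sarcomere, and *Cryab* (0.42), a small chaperone. This median was 0.12 without NEXN-WT replicate 1 and near 0 after quantile normalization (0.00835) and in the study's own values (-0.000405).

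Other myosin chains and *Mylk* gave a median of -0.07 over 15 tested genes, 7 higher and 8 lower, with none called by the brightest probe of each gene. This median turned to 0.20 (10 of 15 higher) with the slide row block or in row 1 alone, and to 0.08 without NEXN-WT replicate 2 or without NEXN-S437E replicate 2. The largest differences were those of *Myl1*, an essential light chain of skeletal and fetal muscle, at -0.84 (SE 0.22, limma adjusted p = 0.153), and *Myh4*, a fast skeletal heavy chain, at 0.82 (SE 0.18, limma adjusted p = 0.133). *Myh4* was tested only through the NEXN-S437E group, as it was above background on 2 of the 3 NEXN-WT arrays. The other *Myl1* probes, A_55_P2499158 and A_52_P273120, differed by -1.22 and -1.1 and did pass the study's thresholds, so the call for *Myl1* depends on the probe. It also depends on the setting, since the first probe, A_51_P416858, passed them after quantile normalization (-1.01), in the study's own values (-1.02), with array weights (-1.01) and, only just, without NEXN-WT replicate 3 (-1.0).

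Among 24 tested regulators of the α and β heavy chain genes, 1 was called: *Dio2*, the enzyme that activates thyroid hormone, read 2.86, 0.30 and 0.22 with NEXN-WT and -2.05, -1.89 and -1.86 with NEXN-S437E, and it fell by 3.06 (SE 0.63, limma adjusted p = 0.111). It stayed past the thresholds at -2.02 under normexp and at -2.19 without NEXN-WT replicate 1, the array where it was highest. *Hopx*, a homeodomain cofactor, had a difference of 0.99 (SE 0.34, limma adjusted p = 0.223). Without NEXN-WT replicate 1 *Hopx* differed by 0.55, and it passed the study's thresholds without NEXN-WT replicate 2 (1.18) or 3 (1.24) or NEXN-S437E replicate 2 (1.07). The median of this list was 0.02, with no stable sign (-0.04 without NEXN-WT replicate 1, -0.05 after quantile normalization).

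Markers of other cells also differed. All 8 fibroblast markers had negative differences, with a median of -1.10, or -0.88 without NEXN-WT replicate 1. Of these, 4 were called and 0 reached an adjusted p under 0.05 (limma). *Col1a1*, *Col1a2* and *Col3a1*, which encode fibrillar collagens, differed by -1.82, -1.49 and -1.34, and *Postn*, a matrix protein of activated fibroblasts, by -2.98. Other *Col1a1* probes, A_55_P2118520 and A_66_P101466, differed by -1.33 and -2.14. Their summed signal was 633 to 1021 with NEXN-WT, highest on replicate 1, and 451 to 486 with NEXN-S437E. Of 5 T cell markers 3 were called lower. *Cd3d* differed by -2.49 and the kinase *Lck* by -2.07. *Cd3g* was at least 2.18-fold lower (limma adjusted p = 0.00112) and at background in all NEXN-S437E hearts. A second *Cd3d* probe, A_51_P285206, was at least 4.59-fold lower and also at background there. This probe and that of *Cd3g* were tested only through the NEXN-WT group, so their falls are given as a description. Under normexp *Lck* (-0.76) and *Cd3g* (-0.32) were not called. Of 9 skeletal muscle markers 7 had positive differences, with a median of 0.34 (0.11 without NEXN-WT replicate 1 and 0.10 with array weights, 6 of 9 positive in each), and 1 was called, *Tnnt3*, at least 1.64-fold lower (limma adjusted p = 0.231). It was not called under normexp (-0.10), with the slide row as a block (-0.88), with the methods' t-test (-1.15, or -1.24 on the study's own values), in slide row 1 alone (-0.88), or without NEXN-WT replicate 1 (-0.71) or NEXN-S437E replicate 3 (-0.89). *Tnnt3* was tested only through the NEXN-WT group, so its fall is given as a description. In that list *Actn3*, *Myh1* and *Mybpc1*, defining genes of that tissue, stayed at background throughout.

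Smooth muscle, macrophage and erythrocyte markers gave no call, except that all 3 erythrocyte genes were called higher with the slide row as a block or in slide row 1 alone (median 2.36). Their largest differences were -0.36 for *Cnn1* and 0.33 for *Kcnj8* among 9 smooth muscle and pericyte genes, -0.47 for *Adgre1* and 0.10 for *Cd68* among 6 macrophage genes, and 0.47 for *Alas2* and 0.29 for *Hba-a1* among 3 erythrocyte genes. The erythrocyte sum was 362 on NEXN-S437E replicate 1 and 34.1 to 130 on the other 5 arrays. The part of these cells in the myosin results was not tested.

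**Figure D4:**
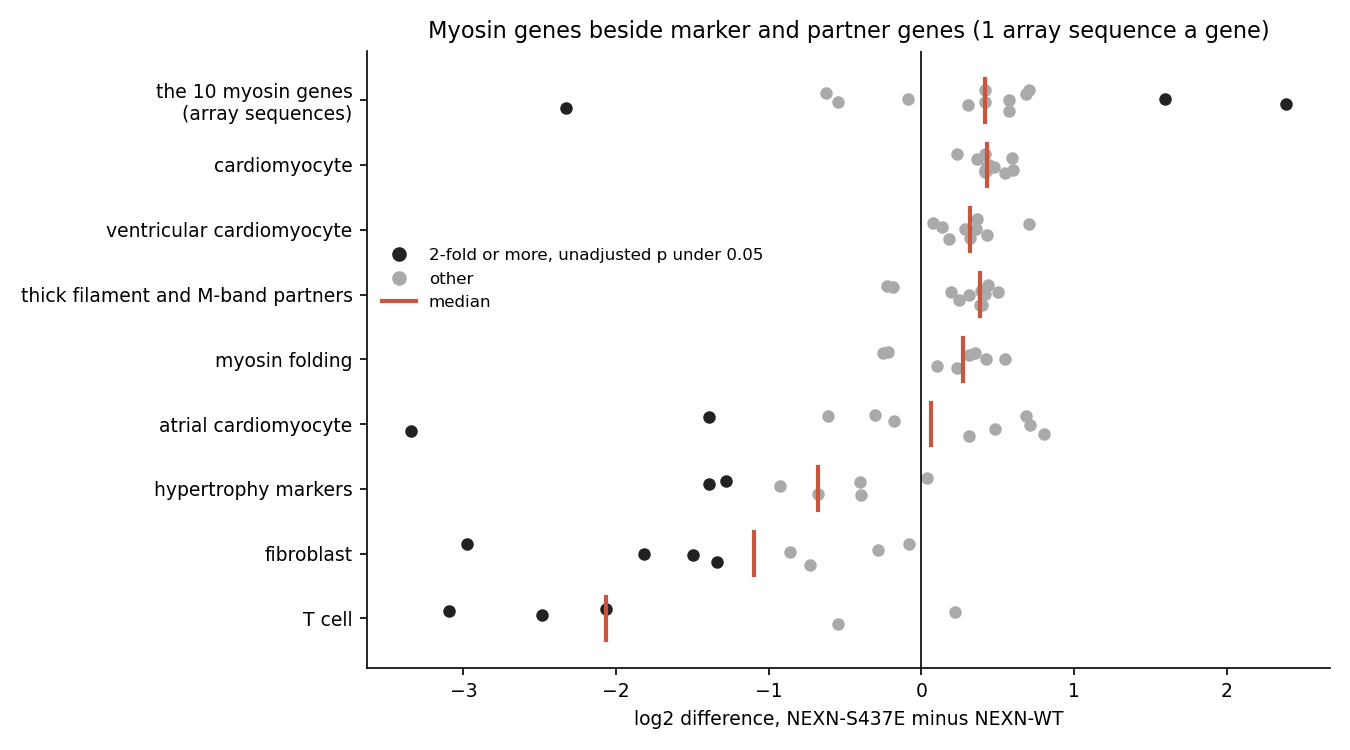
Log2 differences of the tested myosin probes and of the tested genes of 8 lists, 1 probe a gene, with called genes in black and the median of each row in red. Cardiomyocyte markers lie between 0.23 and 0.60, 5 of the 13 myosin probes lie in that range, and *Myh7* lies with the called atrial, hypertrophy and fibroblast genes on the left.

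The differences of *Myh7* and of the first *Mylk4* probe kept their direction over the alternatives run, whereas the size of the small differences moved. Over 20 alternatives *Myh7* ran from -2.73 to -1.91 and passed the study's thresholds in each, though several of these alternatives change only the test or the filter and keep the difference by construction. The first *Mylk4* probe, A_52_P1011632, ran from 1.1 to 1.93 and passed in each of 20. The measured difference of the second, A_55_P2026728, ran from 0.90 to 2.75 in 19, passing in 18, and it was not tested where all 6 arrays had to be above background. *Myh6*, *Myh7b*, *Myl3* and *Mylk3* stayed positive and both *Myl4* probes stayed negative in all 20, none past the study's thresholds. *Mylk2* and *Myl2* turned sign under some, and *Myl7* was not tested.

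**Figure D5:**
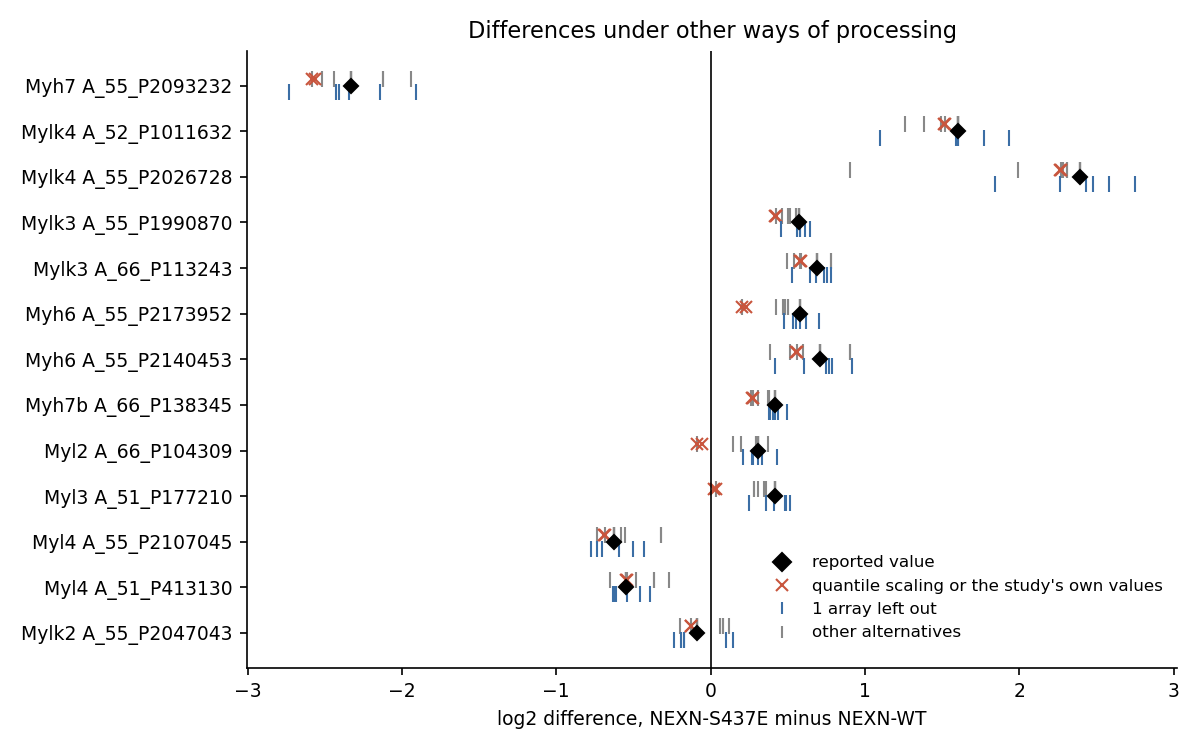
Log2 difference of each tested probe as reported (diamond), after quantile normalization or in the study's own values (crosses), with 1 array left out (lower ticks) and under the other alternatives (upper ticks). *Myh7* and *Mylk4* (A_52_P1011632) keep far from 0, while *Myl2*, *Myl3* and the first *Myh6* probe draw near 0 with the crosses.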

How the data were processed

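RNA of 6 mouse hearts was labelled with Cy3 and hybridised to 6 arrays. The authors deposited the scanner output of each array, whose processed signal intensity had been background-corrected by Agilent Feature Extraction 10.7.1.1, per the file headers, and a series table of normalized log2 values, whose normalization is not given in the sources used here. The scanner intensities were scaled by taking log2 of the processed signal minus the 75th percentile of each array. Outlier and control spots were left out, and replicate spots were averaged. A probe that cleared the background on each of the 3 arrays of either group was tested with limma 3.58.1 (R 4.3.3, lmFit and eBayes), with Benjamini-Hochberg adjustment over all tested probes. The study's thresholds, 2-fold with an unadjusted p under 0.05, were read from the same fit. Ratios within arrays were tested by exact permutation over samples. Each list gene was read by its tested probe of highest mean. The code was tested on simulated data.

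The members, the gene lists and the rule for named genes were chosen with earlier results of these data known. The rule names every member, *Clk4*, *Nexn* and *Esr1*, every list gene past the study's thresholds (and the largest differences until 2 are named), and the 3 nearest profiles of each called probe. *Mhrt*, *Gm31251* and *Cmtm5* were named after their values were seen, for their position. "At least" folds set the bright group's mean against the higher of the dim probe's own signal and the lowest signal well above background on each array. Probe coordinates are those of the series table (mm9), and promoter and miRNA sequences come from RefSeq (GRCm38.p6). Alternatives were other scalings, filters, background correction, tests, blocks, array weights and each array left out. The row 1 values, the study's t-test on its own values and the ratio of *Myl4* to *Myl3* were added after seeing the data. A list of signalling genes and a marker gene that the rule or lists include are not reported here.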

Additional observations from a re-analysis of the deposited data

How the results depend on the processing

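The number of arrays, 3 a group, limits every value here, and probes near background (*Myl7*, *Mylk2*, the second *Mylk4* probe, A_55_P2026728) carry the least. The median difference of the member probes, 0.419, was 0.227 after quantile normalization and 0.202 in the study's own values, with limma or with the study's t-test. The count of 3 member probes past the study's thresholds rose to 6 with a 1.5-fold threshold. The count past an adjusted p of 0.05, 0, was 1 with normexp, 1 with the intensity trend, 3 with array weights, 0 with the study's t-test, and between 0 and 2 with 1 array left out, the 2 coming without NEXN-WT replicate 1. With a replicate block it was 1, *Myh7*, and 591 in place of 579 probes passed the study's thresholds over all probes. Deviations of hearts with the same number correlated at -0.154, -0.0282 and -0.176, and those with different numbers at -0.0703 to 0.183. Correlations this weak, over 3 arrays a group, cannot show whether the numbers pair the hearts. The cause of these shifts was not tested.

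Over all probes, the 579 past the study's thresholds became 180 under normexp (25 higher), 2269 with no filter on dim probes (1645 higher), 345 with a filter on all 6 arrays, 361 with NEXN-WT replicate 1 left out and 900 with replicate 3 of that group left out. The 37 past an adjusted p of 0.05 became 7 with no filter, 20 with the filter on all 6 arrays, 24 with the slide row block, 80 with the intensity trend, 668 with array weights, 0 with the study's t-test, 0 in row 1 alone, and 12 to 128 with 1 array left out.

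The *Myl7* to *Myl2* ratio, 0.145, had no stable direction, running from -0.078 (NEXN-S437E replicate 1 left out) to 0.434 with 1 array left out, with -0.054 for NEXN-WT replicate 2, and the *Myl4* to *Myl3* ratio was -1.04. Some small differences turned sign. *Mylk2* A_55_P2047043 was 0.119 under normexp, 0.0833 with the row block and in row 1 alone, 0.0577 with array weights, and -0.235 to 0.146 with 1 array left out. *Myl2* A_66_P104309 was -0.0581 after quantile normalization and -0.0873 in the study's own values by either test. *Cd68* A_55_P1961943 was -0.0175 (quantile), -0.0771 (normexp), -0.0135 (percentile over detected probes) and -0.0115 (the study's values, either test). With array weights *Alas2* A_51_P327451 was -0.363 and *Hba-a1* A_51_P169730 -0.467, and with 1 array left out they ran from -0.609 to 1.16 and from -0.748 to 0.994. *Nexn* A_52_P367520 was -0.108 (quantile), -0.163 (normexp), -0.0935 (percentile over detected probes), -0.105 (the study's values, either test), -0.305 (row block, row 1 alone), and -0.181 to 0.195 with 1 array left out. *Nexn* A_55_P2745249 was -0.011 under normexp, -0.028 with the row block and in row 1 alone, and -0.0572 to 0.249 with 1 array left out.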
